A study of Mus musculus with 6 samples.

Results

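Glycogen, the branched polymer in which cells store glucose, is built and broken down by a small set of enzymes, and 10 of their genes were followed in brown adipose tissue (BAT) of sST2-KO and WT mice: Gys1, Gys2, Gbe1, Gyg, Ugp2, Pygl, Pygm, Pygb, Ppp1r3b and Ppp1r3c. They were found by gene symbol among the 35976 rows of the count table, all 10 were present, and all 10 passed the filter on low counts. The set was put together by function, but with results of these libraries known: it was chosen because Gys2 had one of the largest falls in sST2-KO against WT, so the Gys2 values are given as a description with no p, its place among the calls supports nothing, and calls for the other members describe these libraries. The muscle forms Pygm and Gys1 are set apart from the rest.

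BAT was taken from 10-week-old male C57BL/6J mice, 3 WT and 3 sST2-KO, 1 RNA-seq library per mouse. The sST2-KO mice lack, in every tissue from the germline on, an intronic stretch of Il1rl1 that the soluble IL-33 receptor sST2 needs and the membrane receptor ST2L does not, and the WT mice were littermates. In both groups the sympathetic nerves of BAT had been cut and the mice had been kept at 10 °C for 8 h, so the WT libraries are from denervated, cold-exposed tissue and not from untouched BAT. The comparison asked how the loss of sST2 changes gene expression in such BAT.

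The libraries held 8159442 to 12874809 counts. Il1rl1, counted over the whole gene with ST2L included, had 19, 19 and 6 counts in WT and 55, 69 and 142 in sST2-KO, which does not test the deletion. The brown adipocyte markers, led by Ucp1, were present in every library but lower in sST2-KO: 10 listed genes summed to 8600, 10500 and 16170 CPM in WT and 570.4, 1873 and 349 CPM in sST2-KO. Skeletal muscle markers, 18 genes led by Acta1, summed to 1606, 80.87 and 71.88 CPM in WT and to 8161, 4357 and 18540 CPM in sST2-KO. In WT replicates 2 and 3 most of that sum was 1 gene, Myl1, at 51.19 and 58.49 CPM. WT replicate 2 carried a liver gene sum of 7598 CPM, against 460.4 and 282.1 CPM in WT replicates 1 and 3. In these last, most of the sum was 1 gene, Cyp2e1, at 394.8, 334.8 and 243 CPM in WT. The albumin gene Alb was at 23.61, 3181 and 3.686 CPM in WT. In bulk tissue, fewer cells of a type and less RNA per cell cannot be told apart.

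Glycogen synthesis begins with UDP-glucose, made by Ugp2, and with glycogenin (Gyg), a protein that attaches the first glucose residues to itself. Glycogen synthase then lengthens the chain and the branching enzyme Gbe1 adds the side chains, while glycogen phosphorylase releases glucose 1-phosphate from the chain ends. Synthase and phosphorylase exist as forms from separate genes: Gys2 and Pygl are the liver forms, Gys1 and Pygm the forms of muscle, with Gys1 used by most tissues, and Pygb the brain form. Ppp1r3b and Ppp1r3c bring protein phosphatase 1 (PP1) to the glycogen particle, where it activates synthase and inactivates phosphorylase. Brown adipocytes are known to store glycogen.

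Levels are given as normalized CPM, the share of a gene in its library after TMM scaling, in the order of replicates 1, 2 and 3. A gene was called when edgeR's quasi-likelihood test gave an adjusted p under 0.05 over all 14542 genes tested and the fold change exceeded 2. By that rule 3 of 10 members were called lower in sST2-KO (Gbe1 and Pygl, and Gys2 through the value that chose the set), where 7.10% of all genes were, and 1 of 10 was called higher (Pygm), where 9.04% of all genes were. In 4 of 10 members the 3 sST2-KO libraries were all below the 3 WT libraries, as in 19.7% of all genes, and in 1 of 10 they were all above, as in 21.8% of all genes. The ranges overlapped in the other 5. Because the members were selected on the fall of Gys2 in the same contrast, nothing is read from these shares. The median log2 fold change, sST2-KO minus WT, was -0.42 over the members and 0.034 over all genes tested.

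**Figure D1:**
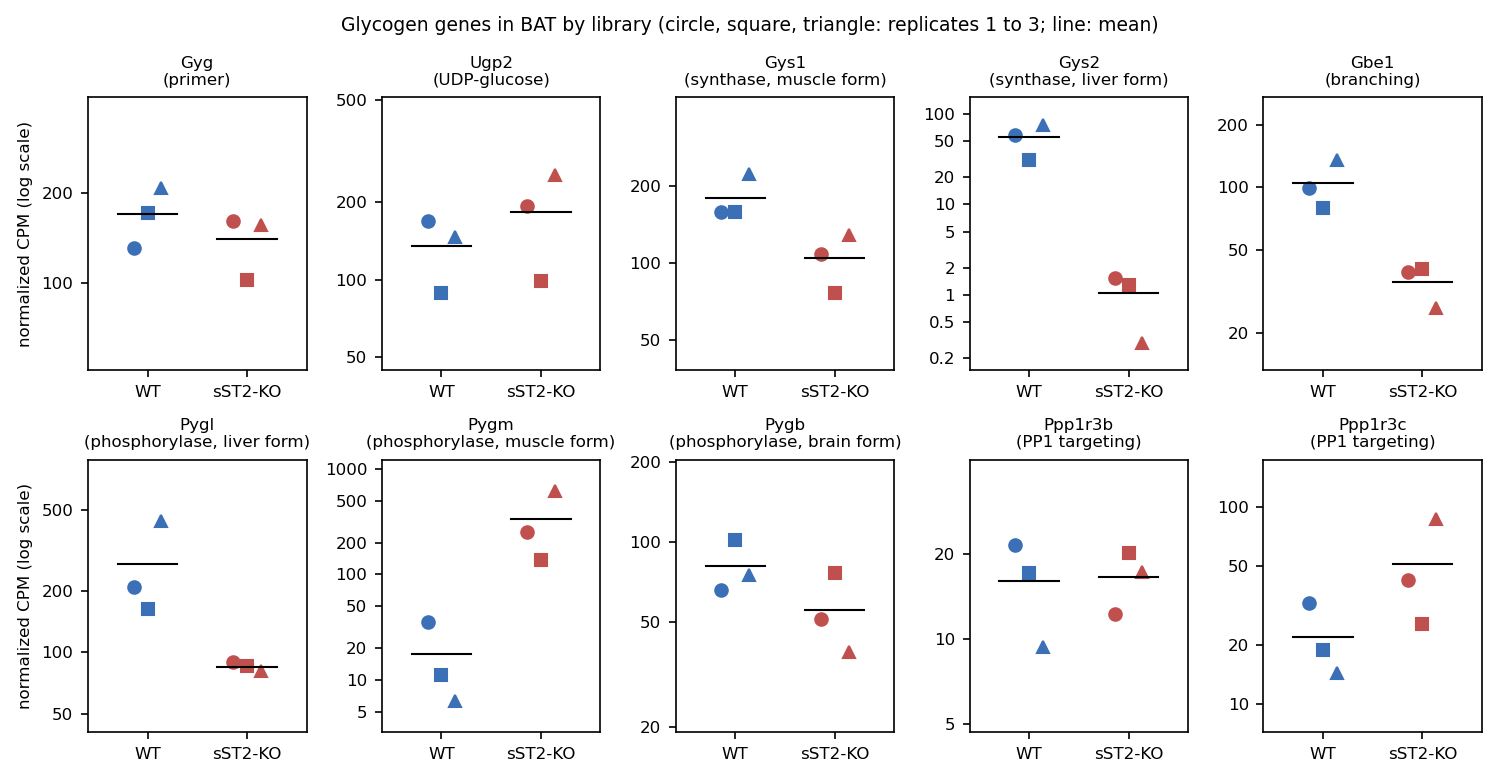
Normalized CPM of the 10 glycogen genes in each library on log axes that differ between panels, with circles, squares and triangles for replicates 1, 2 and 3 of WT (blue) and sST2-KO (red), and a line at each group mean. Gys2, Gbe1, Pygl and Gys1 lay lower in all 3 sST2-KO libraries than in any WT library, Pygm lay higher, and the other 5 genes overlapped.

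The entry into the pathway did not pass the test. Ugp2, which makes the glucose donor, stood at 169.9, 88.94 and 146.6 CPM in WT and 193.2, 98.98 and 256.3 CPM in sST2-KO. Each group spanned a wide range and the lowest sST2-KO library lay close to the lowest WT library. The log2 fold change was 0.44 ± 0.38 (SE, n = 3 per group; adjusted p = 0.453 by edgeR). Gyg, the primer, stood at 130.7, 171.2 and 208.2 CPM in WT and 161.7, 102.7 and 155.9 CPM in sST2-KO. Its log2 fold change was -0.28 ± 0.26 (SE; adjusted p = 0.483 by edgeR) and became 0.016 when libraries were scaled by total counts, so its direction depended on the scaling. Gyg shares 155 exon bases with Hltf and Ugp2 shares 950 with Vps54, both on the opposite strand, and whether strand was used when reads were counted is not given in the sources used here.

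Gys2, the liver form of glycogen synthase, lies at chr6:142368339-142418841 (GRCm39, minus strand) and shares no exon bases with another annotated gene. It was measured at 58.75, 30.9 and 76.31 CPM in WT, from 632, 329 and 621 counts. In sST2-KO it was at 1.528, 1.301 and 0.2952 CPM, from 22, 11 and 3 counts. Every WT library was thus far above every sST2-KO library, and the lowest WT library was replicate 2, the one with the high liver sum. The means were 55.3 ± 22.9 CPM in WT and 1.04 ± 0.656 CPM in sST2-KO (SD, n = 3 each), a fitted log2 fold change of -5.68 ± 0.57 (SE), or 51.4-fold lower. Among the 14542 genes tested that value ranked 7 from the most negative, which restates how the gene came into the set. The 36 sST2-KO counts in all have an exact 95% Poisson interval of 25.2 to 49.8, and the 3 counts of replicate 3 one of 0.619 to 8.77, both for counting error only.

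Gbe1, the branching enzyme, was called lower. It lies at chr16:70110715-70366609 (plus strand) and was at 99.83, 79.36 and 135.5 CPM in WT and 38.97, 40.33 and 26.37 CPM in sST2-KO. The 3 sST2-KO libraries all lay well below the lowest WT library. The means were 104.9 ± 28.4 and 35.2 ± 7.69 CPM (SD, n = 3 each), with a log2 fold change of -1.57 ± 0.27 (SE; adjusted p = 0.015 by edgeR), or 2.98-fold lower. Without WT replicate 3 the log2 fold change was -1.35 and the call was lost (adjusted p = 0.0622 by edgeR).

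Pygl, the liver form of glycogen phosphorylase, was called lower too. It lies at chr12:70237585-70278262 (minus strand) and was at 209.1, 163.1 and 439.8 CPM in WT. The sST2-KO libraries were close together at 89.32, 85.15 and 80.89 CPM, whereas WT replicate 3 stood above both other WT libraries. The means were 270.7 ± 148 and 85.1 ± 4.21 CPM (SD, n = 3 each), with a log2 fold change of -1.67 ± 0.37 (SE; adjusted p = 0.0246 by edgeR), or 3.18-fold lower. The adjusted p exceeded 0.05 when WT replicate 3 or any one of the sST2-KO libraries was left out, with log2 fold changes of -1.13 without WT replicate 3 (adjusted p = 0.0622) and -1.64 to -1.70 without an sST2-KO library (adjusted p = 0.05001 to 0.0600). Pygl is also made by myeloid cells: the 10 macrophage markers summed to 1170, 1101 and 870.5 CPM in WT and 1543, 1517 and 6401 CPM in sST2-KO, and sST2-KO replicate 3, with the highest sum, had the lowest Pygl. The 10 neutrophil markers summed to 41.45, 32.49 and 158.4 CPM in WT and 545, 156.7 and 752.7 CPM in sST2-KO, again highest in the library with the lowest Pygl. Within WT it was the reverse, since replicate 3 had both the highest neutrophil sum and the highest Pygl. The part of myeloid RNA in the Pygl values was not tested.

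Pygb, the brain form of phosphorylase, overlapped between the groups at 66.0, 101.9 and 75.2 CPM in WT and 51.33, 76.04 and 38.28 CPM in sST2-KO. Its log2 fold change was -0.55 ± 0.29 (SE; adjusted p = 0.212 by edgeR).

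The PP1 targeting subunits did not pass the test either. Ppp1r3b, the subunit known from liver, was at 21.57, 17.19 and 9.34 CPM in WT and 12.22, 20.1 and 17.22 CPM in sST2-KO, within the same range. Its log2 fold change was 0.036 ± 0.34 (SE; adjusted p = 0.951 by edgeR). Ppp1r3c, found in many tissues, was at 32.63, 18.88 and 14.38 CPM in WT and 42.3, 25.54 and 86.4 CPM in sST2-KO. Its highest WT library lay above its lowest sST2-KO library, and the log2 fold change of 1.22 ± 0.48 (SE) had an adjusted p of 0.111 by edgeR.

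The promoters of the called members are shown as the 250 bases before the gene start in RefSeq on GRCm38.p6, 5′ to 3′ on the gene's strand, for Pygl and Gbe1, which were called lower, and Pygm, which was called higher. Capitals mark matches on either strand to the E-box CACGTG, the cAMP response element core TGACG, the nuclear receptor motif AGGTCA, the GC box GGGCGG and the TATA box TATAAA. These matches did not overlap one another.
Pygl, chr12:70227684-70227933, minus strand: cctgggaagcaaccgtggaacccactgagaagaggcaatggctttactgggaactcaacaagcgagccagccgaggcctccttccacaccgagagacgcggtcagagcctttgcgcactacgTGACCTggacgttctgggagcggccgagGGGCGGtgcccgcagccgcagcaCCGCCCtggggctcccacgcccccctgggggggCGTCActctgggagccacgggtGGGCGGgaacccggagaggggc
Gbe1, chr16:70313699-70313948, plus strand: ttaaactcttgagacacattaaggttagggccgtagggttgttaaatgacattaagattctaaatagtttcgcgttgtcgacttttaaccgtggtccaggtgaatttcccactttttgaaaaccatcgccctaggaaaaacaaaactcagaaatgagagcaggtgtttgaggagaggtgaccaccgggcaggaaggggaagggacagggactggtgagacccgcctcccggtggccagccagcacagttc
Pygm, chr19:6384158-6384407, plus strand: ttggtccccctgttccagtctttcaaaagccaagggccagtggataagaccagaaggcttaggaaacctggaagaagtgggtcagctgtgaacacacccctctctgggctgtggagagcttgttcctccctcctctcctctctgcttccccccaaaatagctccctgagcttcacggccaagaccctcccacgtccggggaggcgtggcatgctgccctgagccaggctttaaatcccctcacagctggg
The Pygl window held a TGACG match 44 to 40 bases before the start, an AGGTCA match 128 to 123 bases before it and 3 GC boxes, and neither the Gbe1 nor the Pygm window held any of the 5 motifs. Of 32851 promoters of this length, 17.8% held TGACG, 14% AGGTCA, 32.7% GGGCGG, 12.4% TATAAA and 6.02% CACGTG. Among the 8 members with an entry, 2 held TGACG (Pygl and Pygb), 1 held AGGTCA (Pygl), 4 held GGGCGG (Gyg, Gys1, Ugp2 and Pygl), 1 held CACGTG (Ppp1r3c) and 0 held TATAAA. Gys2 and Ppp1r3b had no entry. A match of letters is a description and not a shown binding site.

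Of the muscle forms, Pygm was called higher and moved against the other called members. Pygm, muscle glycogen phosphorylase, lies at chr19:6430569-6448538 (plus strand). It was at 35.42, 11.27 and 6.39 CPM in WT, from 381, 120 and 52 counts, and at 254, 136.8 and 610.5 CPM in sST2-KO, from 3657, 1157 and 6204 counts. Both groups were widely spread, yet the lowest sST2-KO library was above the highest WT library. The means were 17.7 ± 15.5 and 333.8 ± 247 CPM (SD, n = 3 each), with a log2 fold change of 4.23 ± 0.81 (SE; adjusted p = 0.0175 by edgeR), or 18.8-fold higher. The call was lost without WT replicate 2 (log2 fold change 3.99, adjusted p = 0.0607) and without WT replicate 3 (3.83, adjusted p = 0.0679).

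The skeletal muscle markers moved with Pygm. In all 18 the sST2-KO libraries were above the WT libraries without overlap, as in 21.8% of all genes. Of the 18, 4 were called higher, where 9.04% of all genes were, and the median log2 fold change was 4.12. Acta1, the actin of skeletal muscle, was at 386.9, 5.635 and 0.7373 CPM in WT and 1807, 1039 and 3893 CPM in sST2-KO. None of the 18 was at 0 in WT replicate 1 or in sST2-KO, whereas 1 was at 0 in WT replicate 2 and 5 were in WT replicate 3. Per 1000 CPM of the summed markers, Pygm was 22.06, 139.4 and 88.89 in WT and 31.12, 31.4 and 32.92 in sST2-KO. The sST2-KO libraries thus held Pygm in a nearly constant proportion to the muscle markers, and the WT libraries with few marker reads lay above it. In WT replicates 2 and 3 the marker sum was mostly Myl1, at 51.19 and 58.49 CPM, so their ratios rest largely on that gene. The part of muscle RNA in the Pygm difference was not tested.

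Gys1, the synthase of muscle and most other tissues, went the other way from Pygm. It was at 158.1, 158.7 and 222.5 CPM in WT and 108.8, 76.04 and 128.6 CPM in sST2-KO. The groups did not overlap, but the log2 fold change of -0.78 ± 0.26 (SE) did not pass (adjusted p = 0.0708 by edgeR). DESeq2 gave it an adjusted p of 0.0299 at less than 2-fold. Gys1 shares 420 exon bases with Ruvbl2 on the opposite strand, and reads from both cannot be told apart without strand.

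Within sST2-KO, the muscle sum was lowest in replicate 2 and highest in replicate 3. That order of the 3 libraries was found in 4 of 10 members (Pygm, Gys1, Ugp2 and Ppp1r3c), in 14 of 18 muscle markers and in 16.1% of all genes tested. Gys2, Gbe1, Pygl and Pygb did not follow it and were each lowest in replicate 3, as were the summed adipocyte and brown adipocyte markers. Protein-coding genes of the mitochondrial genome made up 6.8% of counts in that library and 11.8% to 16.6% in the others.

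**Figure D2:**
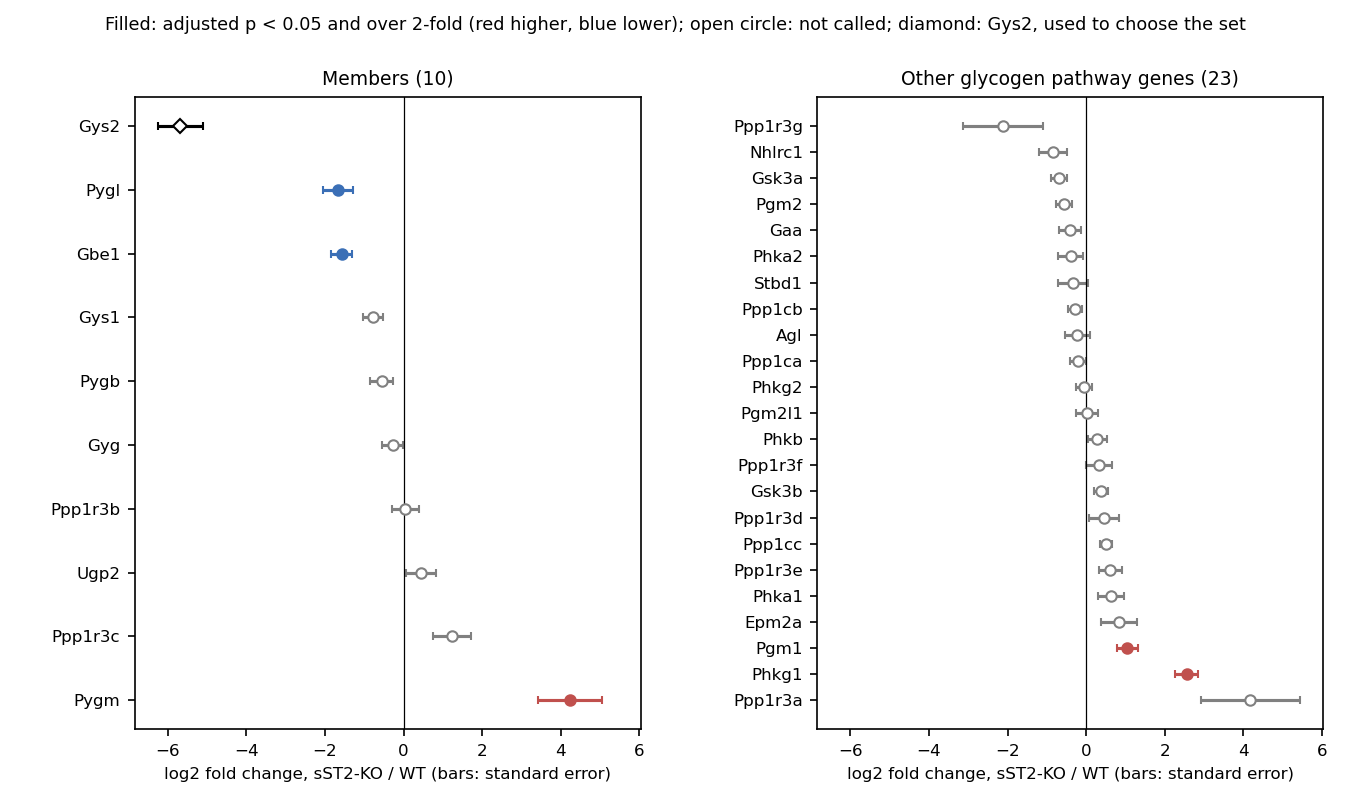
Log2 fold change of sST2-KO over WT for the 10 members (left) and the 23 other glycogen pathway genes (right), with bars of 1 SE from 3 libraries per group, filled points for called genes and an open diamond for Gys2, whose value chose the set and is shown as a description. The members ran from -5.68 for Gys2 to 4.23 for Pygm, and among the other genes Phkg1 and Pgm1 were called higher. Gyg, at -0.28, changed sign to 0.016 with total-count scaling.

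Lengths of exons were used to set the forms of an enzyme against each other, as normalized CPM per kb of exon. In WT both synthase forms were well represented: Gys2 made up 52.29%, 36.47% and 50.28% of the sum of Gys1 and Gys2, and Gys1 the rest. In sST2-KO the Gys2 share was 3.978%, 4.803% and 0.6724%, so that Gys1 held nearly the whole synthase level. With coding length in place of exon length the mean Gys2 share in WT was 24.2% and in sST2-KO 1.18%, since much of the Gys1 exon length is not coding. The summed synthase level was 42.19, 31.81 and 56.99 CPM per kb in WT and 14.42, 10.17 and 16.49 CPM per kb in sST2-KO, without overlap. This sum holds the Gys2 value that chose the set, with means of 20.8 CPM per kb in WT and 0.391 in sST2-KO. The means of Gys1 were 22.9 and 13.3, so the shares and the sum in part restate the choice of the set.

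The phosphorylase forms changed places. Pygl made up 65.49%, 64.23% and 87.38% of the summed Pygl, Pygm and Pygb level in WT and 15.17%, 21.97% and 6.618% in sST2-KO. Pygm made up 20.25%, 8.104% and 2.319% in WT and 78.81%, 64.49% and 91.22% in sST2-KO. The mean Pygm share in sST2-KO was 78.2% ± 13.4 with exon length and 64.5% ± 18.9 with coding length (SD, n = 3). The summed phosphorylase level overlapped between the groups with Pygm included, at 36.24 to 71.82 CPM per kb in WT and 55.29 to 174.4 CPM per kb in sST2-KO. Without the muscle form it did not: Pygl and Pygb together were at 36.34, 33.31 and 70.15 CPM per kb in WT and at 17.8, 19.63 and 15.31 CPM per kb in sST2-KO.

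The ratio of summed phosphorylase to summed synthase was 1.08, 1.139 and 1.26 in WT and 5.824, 5.437 and 10.58 in sST2-KO. With Pygm left out it was 0.861, 1.047 and 1.231 in WT and 1.234, 1.93 and 0.929 in sST2-KO, and the groups overlapped. The difference in the ratio thus appeared with Pygm in the sum and not without it. The synthase sum under both ratios includes Gys2, whose value chose the set.

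**Figure D3:**
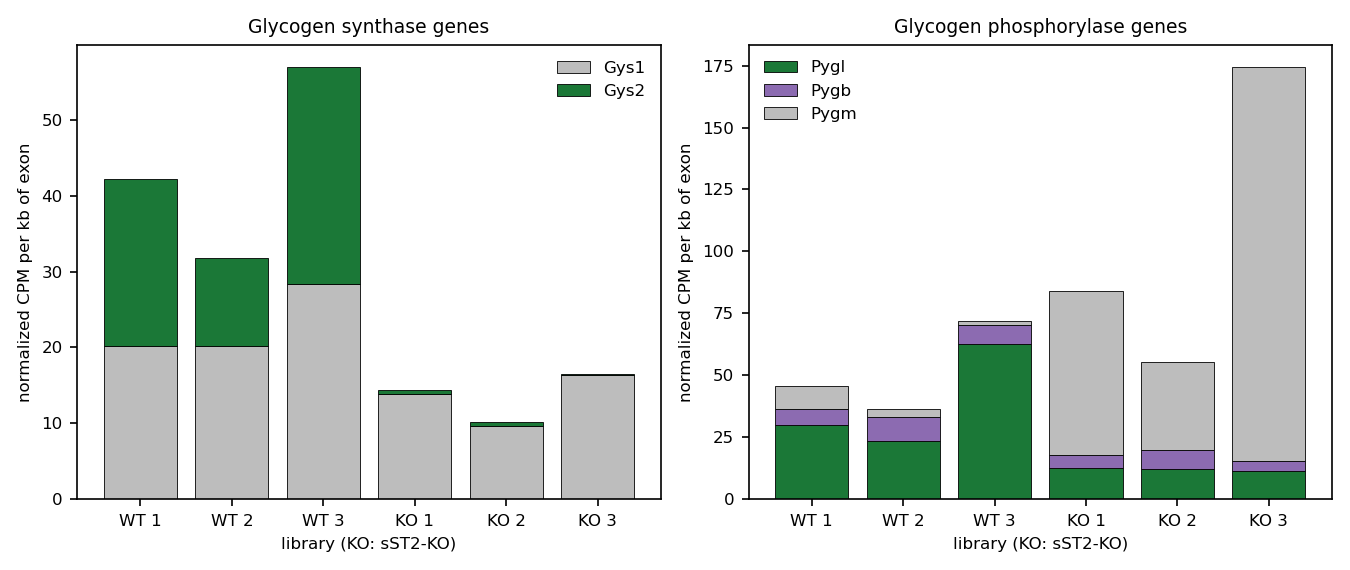
Stacked bars of normalized CPM per kb of exon in each library, for the synthase genes Gys1 (grey) and Gys2 (green) on the left and the phosphorylase genes Pygl (green), Pygb (purple) and Pygm (grey) on the right. Gys2 is about as tall as Gys1 in WT replicates 1 and 3 and barely visible in sST2-KO, and Pygm fills most of each sST2-KO phosphorylase bar.

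Ordered by level per kb in WT, the members ran from Gyg (57.6 CPM per kb) over Pygl (38.6), Ugp2 (27.1), Gys1 (22.9), Gys2 (20.8) and Gbe1 (19.0) to Pygb (7.97), Ppp1r3c (6.55), Pygm (4.61) and Ppp1r3b (2.03), as means of 3 libraries. The ranges of neighbours in that order overlapped except between Gbe1 and Pygb. In sST2-KO the order was Pygm (87.0 CPM per kb), Gyg (47.4), Ugp2 (36.6), Ppp1r3c (15.3), Gys1 (13.3), Pygl (12.1), Gbe1 (6.38), Pygb (5.43), Ppp1r3b (2.09) and Gys2 (0.391). There the ranges of neighbours did not overlap between Pygl and Gbe1, between Pygb and Ppp1r3b and between Ppp1r3b and Gys2. By exon length Gys2 thus stood mid-list in WT and last in sST2-KO, and Pygm stood near the end in WT and first in sST2-KO. The order was not repeated with coding length, with which the mean Gys2 share of synthase in WT was 24.2% in place of 46.3%, so places in it depend on the length used.

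Markers of fat cells moved with the members that were lower. The 10 markers of all adipocytes, among them Adipoq, summed to 26630, 28970 and 32230 CPM in WT and 16850, 14910 and 8010 CPM in sST2-KO. In 8 of 10 the sST2-KO libraries were all below WT, as in 19.7% of all genes. Of the 10, 2 were called lower, where 7.10% of all genes were, and the median log2 fold change was -1.11. Adipoq itself was at 1039, 1222 and 1504 CPM in WT and 515, 700.7 and 373.7 CPM in sST2-KO. Per 1000 CPM of this sum, Gbe1 was 3.749, 2.74 and 4.204 in WT and 2.312, 2.705 and 3.292 in sST2-KO. Pygl was 7.853, 5.63 and 13.65 in WT and 5.3, 5.712 and 10.1 in sST2-KO on the same scale. Set against the adipocyte markers, Gbe1 and Pygl thus overlapped between the groups, with WT means 1.29-fold above the sST2-KO means for both.

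Gys2 did not overlap on that scale. It was 2.206, 1.067 and 2.368 per 1000 CPM of the adipocyte sum in WT and 0.0907, 0.0873 and 0.0369 in sST2-KO, 26.3-fold lower by the means. Since the fall of Gys2 chose the set, its ratios are a description only, and in sST2-KO they rest on 22, 11 and 3 counts. Of the 10 brown adipocyte markers, 9 were called lower, where 7.10% of all genes were. Their median log2 fold change was -3.21, so they moved further than the markers of all adipocytes. Ucp1, the uncoupling protein of brown fat, was at 5210, 6439 and 10490 CPM in WT and 159.8, 1038 and 152.6 CPM in sST2-KO. Per 1000 CPM of the brown adipocyte sum, Gys2 was 6.831, 2.943 and 4.719 in WT and 2.679, 0.695 and 0.846 in sST2-KO. The groups again did not overlap, but by little, and the means differed 3.43-fold. Gbe1 and Pygl were higher in sST2-KO on this scale, at 7.558 to 11.61 in WT and 21.53 to 75.55 in sST2-KO for Gbe1 and at 15.53 to 27.2 in WT and 45.47 to 231.8 in sST2-KO for Pygl. The part of cell type or state in these differences was not tested.

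**Figure D4:**
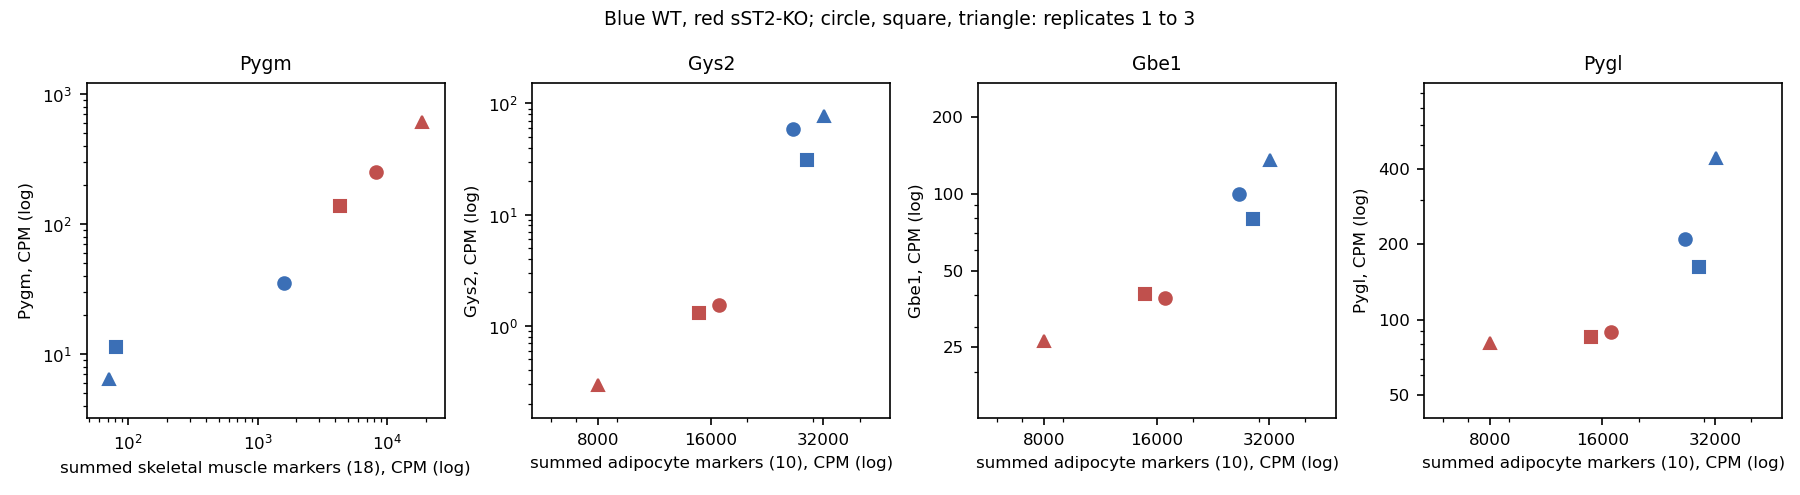
Normalized CPM of Pygm against the sum of 18 skeletal muscle markers, and of Gys2, Gbe1 and Pygl against the sum of 10 adipocyte markers, on log axes, 1 point per library (blue WT, red sST2-KO; circles, squares and triangles for replicates 1, 2 and 3). Libraries with more muscle signal held more Pygm, and the ratios of Gbe1 and Pygl to the adipocyte sum overlapped between the groups. Gys2, whose value chose the set and is shown as a description, differed between the groups by more than that sum did.

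The liver forms were also set against liver RNA. Of 15 liver genes, 5 passed the filter and 3 were called lower (Alb, Apoa2 and Cyp2e1), where 7.10% of all genes were. Cyp2e1 was not highest in WT replicate 2, unlike Alb. Alb, albumin, had 254, 33870 and 30 counts in WT and 20, 11 and 19 in sST2-KO. WT replicate 2, which carried most of this signal, had the lowest Gys2 and the lowest Pygl of the 3 WT libraries. Without it the log2 fold change was -1.93 for Pygl and, as a description of the value that chose the set, -5.98 for Gys2. The part of liver RNA in the Gys2 and Pygl values was not tested.

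The rest of the pathway was described with 23 further genes: phosphoglucomutases, phosphorylase kinase subunits, debranching and lysosomal enzymes, other PP1 subunits, the synthase kinases Gsk3a and Gsk3b, and the laforin and malin genes. All 23 were tested, 2 were called higher, against 9.04% of all genes, and 0 lower, against 7.10% of all genes, by edgeR, and their median log2 fold change was 0.014. DESeq2 called 0 lower too, against 7.34% of all genes. Of the 23, 3 had an unadjusted p under 0.05 in the lower direction by edgeR, as did 16.7% of all genes. In 4 of 23 every sST2-KO library lay below WT, against 19.7% of all genes, in 6 above, against 21.8%, and in 13 the groups overlapped. These counts were near the shares over all genes.

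Phkg1, the catalytic subunit of phosphorylase kinase found in muscle, was at 6.6, 8.171 and 4.546 CPM in WT and 27.57, 42.22 and 44.78 CPM in sST2-KO. The groups were well apart, with a log2 fold change of 2.56 ± 0.30 (SE; adjusted p = 0.0100 by edgeR). Phkg1 shares 3035 exon bases with Sumf2 on the opposite strand, which was itself at 13.66 to 14.75 CPM in WT and 23.2 to 25.19 CPM in sST2-KO, so the source of its reads is uncertain without strand. Pgm1, a phosphoglucomutase that converts glucose 1-phosphate to glucose 6-phosphate, was at 22.31, 22.35 and 17.57 CPM in WT and 27.99, 53.57 and 47.04 CPM in sST2-KO. Its log2 fold change was 1.04 ± 0.27 (SE; adjusted p = 0.035 by edgeR), the call held in 1 of 6 fits with a library left out, and Pgm1 shares 615 exon bases with Itgb3bp on the opposite strand.

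The 3 of the remaining genes with the highest mean level per kb were not called. Ppp1ca, a catalytic subunit of PP1, was at 210.2, 274.2 and 279.4 CPM in WT and 197.1, 218.3 and 244.6 CPM in sST2-KO (adjusted p = 0.508 by edgeR). Gsk3a, a kinase that inhibits synthase, was at 107.2, 141.2 and 144.1 CPM in WT and 87.45, 89.41 and 66.72 CPM in sST2-KO, without overlap (adjusted p = 0.056 by edgeR). Ppp1cc, another catalytic subunit of PP1, was at 74.74, 68.47 and 64.88 CPM in WT and 93.21, 96.5 and 105.9 CPM in sST2-KO, without overlap (adjusted p = 0.065 by edgeR).

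A further pair of PP1 targeting subunits is named after their values were seen. Ppp1r3a, the form of striated muscle, had 28, 0 and 0 counts in WT and 181, 44 and 326 in sST2-KO, with a fitted log2 fold change of 4.18 ± 1.27 (SE; adjusted p = 0.0555 by edgeR). It passed the filter only through the sST2-KO libraries. By edgeR it was called higher with no expression filter (adjusted p = 0.0349) and without WT replicate 1 (adjusted p = 0.0308), which left 0 counts in WT. DESeq2 did not call it (adjusted p = 0.177). Per 1000 CPM of the muscle markers it was 1.621 in WT replicate 1 and 1.54, 1.194 and 1.73 in sST2-KO, so that the libraries with muscle signal held it in a like proportion. Phkg1, also found in muscle, was far less constant on that scale, at 4.111, 101 and 63.24 in WT and 3.378, 9.691 and 2.415 in sST2-KO. WT replicates 2 and 3, with few muscle marker reads, held the high values. The part of muscle RNA in the Ppp1r3a and Phkg1 differences was not tested. Ppp1r3g was at 5.02, 19.53 and 10.94 CPM in WT and 0.3473, 7.332 and 0.7873 CPM in sST2-KO (adjusted p = 0.177 by edgeR), overlapping through sST2-KO replicate 2.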

How the data were processed

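BAT RNA from 3 WT and 3 sST2-KO mice was sequenced as poly(A) libraries with paired reads of 150 bp. The authors checked reads with FastQC 0.12.1, aligned them with HISAT2 2.2.1 to mm39 and counted reads per gene with htseq-count. They deposited these counts per gene symbol without normalization. Its version and its use of strand are not given in the sources used here. Groups and replicate numbers were taken from the labels of the samples, and 0 per-sample columns went unused.

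The analysis used edgeR 4.0.16 in R 4.3.3 (filterByExpr, TMM, glmQLFit, glmQLFTest without covariates, Benjamini-Hochberg adjustment over 14542 genes), with calls made where the adjusted p was under 0.05 and the change over 2-fold. The study used DESeq2, which served as an alternative (version 1.42.0). The SE of a log2 fold change was derived from its F value. Biological variation (common coefficient) came to 0.325. An exact two-sided permutation test of 3 against 3 cannot give a p below 0.1. The labels name separate mice but no extraction batches. Libraries of a group differed by a chi-square per degree of freedom of 36.6 to 104, so none was a copy.

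The members and all gene lists, written from general knowledge, were chosen with earlier results of these data known. Named were all 10 members, the called genes of 23 other pathway genes, the 3 of the rest with the highest mean level per kb, and Acta1, Alb, Ucp1 and Adipoq as defining markers. Exon and coding lengths, positions and overlaps came from GENCODE on GRCm39 (Gyg is listed there as Gyg1), and promoters from RefSeq on GRCm38.p6, where 8 of 10 members matched. The steps were tested on simulated data. Alternatives were RLE factors, total counts, DESeq2, no expression filter, at least 10 counts in every library, robust estimation, no fold threshold, the replicate number as a block, coding length, and each library left out. Figures were drawn with matplotlib 3.10.9.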

Additional observations from a re-analysis of the deposited data

How the results depend on the processing

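With 3 mice per group, the calls rested on few libraries. The replicate numbers were not shown to pair the mice, since the deviations of same-numbered libraries from their group means correlated at -0.06, 0.21 and -0.31. With the replicate number as a block, edgeR called 0 members lower, 0 members higher and 0 other pathway genes higher, as it called 0 of all genes. In that fit 5 of 10 members had an unadjusted p under 0.05 by edgeR in the lower direction, against 15% of all genes. The 5 include Gys2, whose value chose the set, so nothing is read from that share. Of 23 other pathway genes, 3 had such a p in the lower direction. In the higher direction 1 member and 4 other pathway genes did, against 16.8% of all genes. Gbe1, Pygl and Pygm then had log2 fold changes of -1.56, -1.53 and 4.22 (adjusted p = 0.0693, 0.0748 and 0.0685 by edgeR). Leaving out each library in turn gave 1 to 3 members called lower, 0 to 1 called higher, 0 to 1 other pathway genes called lower (Ppp1r3g, without sST2-KO replicate 2) and 1 to 2 called higher. Of all genes tested, 0.146% to 6.74% were called lower in those fits and 0.239% to 9.38% higher. Over all genes the calls numbered 22 lower and 36 higher without WT replicate 3, 480 and 391 without WT replicate 2, and 641 and 683 without sST2-KO replicate 3, against 1033 and 1315 with every library. Scaling by total counts turned Gyg to 0.016, moved the median log2 fold change of all genes from 0.034 to 0.30, and gave 72.9% higher among called genes against 56.0% with TMM. Ppp1r3b ranged between -0.24 and 0.30 over these fits with 1 library omitted, and turned negative without WT replicate 3 (-0.24), sST2-KO replicate 2 (-0.15) or sST2-KO replicate 3 (-0.0014). A minimum of 10 counts in every library removed Gys2, leaving Gbe1 and Pygl called lower, where 7.22% of all genes were. The counts of members called lower include Gys2, whose value chose the set. The remaining values for single members kept their direction, and Gys2 aside, the calls were lost only under the block and the libraries left out that are named with each gene. With coding length, the Gys2 share moved in WT to 24.2%, and in sST2-KO the Pygm and Pygb shares moved to 64.5% and 14.4%.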
